A study of Homo sapiens with 12 samples.

Results

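Mature miRNAs of the miR-10, miR-99, miR-100 and miR-125 families were followed across a myeloma cell line in which cereblon (CRBN) and argonaute 2 (AGO2) had been altered and lenalidomide had been given. Members were every assay on the array whose name was miR-10a, miR-10b, miR-99a, miR-99b, miR-100, miR-125a or miR-125b, whichever arm of the hairpin it measured. This rule took 11 of the 372 miRNA assays. They were hsa-miR-10a-5p and hsa-miR-10a-3p, hsa-miR-10b-5p and hsa-miR-10b-3p, hsa-miR-99a-5p and hsa-miR-99a-3p, hsa-miR-99b-5p, hsa-miR-100-5p, hsa-miR-125a-5p and hsa-miR-125a-3p, and hsa-miR-125b-5p, written below without the species prefix.

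The cells were OCI-My5, an established multiple myeloma line. Both derivatives were pools of cells sorted for GFP after lentiviral infection: My5.LV carried the empty vector, had little CRBN and was resistant to immunomodulatory drugs, and My5.CRBN carried a His-tagged CRBN cDNA, had much CRBN and was sensitive. Each was measured untreated, after a lentiviral shRNA against AGO2 (AGO2-sh72), after a lentiviral AGO2 cDNA, after 10 µM lenalidomide for 72 h (Len 72h) or 120 h (Len 120h), and after AGO2 cDNA together with lenalidomide for 72 h. That made 12 conditions with 1 PCR array each. Cells given the shRNA or the cDNA had been selected with puromycin, and the untreated cells carried neither of those vectors, so viral delivery and selection cannot be told apart from the change in AGO2. The study also reported cell death after AGO2-sh72 in both lines. The part of dying cells in the miRNA levels cannot be told apart from less AGO2 either. No array was labelled as given vehicle alone, and each line had 1 untreated array for both 72 h and 120 h of lenalidomide. Vehicle and time in culture therefore cannot be told apart from the drug. The arrays hold no assay for AGO2 or CRBN mRNA, so neither the AGO2 nor the CRBN alteration could be checked in these data.

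A miRNA of about 22 bases guides an argonaute protein to messenger RNAs, chiefly through its seed, bases 2 to 8 from the 5′ end. Each hairpin gives a 5p and a 3p arm, of which one is usually retained by argonaute and the other largely lost. The families described here are among the oldest animal miRNAs, and their genes often lie beside let-7 genes in clusters that can be transcribed together. miR-99a and miR-100 are known to repress mTOR, miR-125b represses IRF4 and PRDM1 in B cells, and miR-10a and miR-10b lie in HOX gene clusters.

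The mature 5p sequences are shown because they sort the members into seed groups and show how little separates some of the assays. They were taken from RefSeq on GRCh38.p14, where 10 of the 11 members had an entry. The member without one was miR-10b-5p, so its sequence could not be set beside that of miR-10a-5p. Seeds are in capitals.
miR-99a-5p: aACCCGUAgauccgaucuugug
miR-100-5p: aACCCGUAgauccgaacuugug
miR-99b-5p: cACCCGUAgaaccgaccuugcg
miR-10a-5p: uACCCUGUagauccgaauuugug
miR-125a-5p: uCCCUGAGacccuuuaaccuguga
miR-125b-5p: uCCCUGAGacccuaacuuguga

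miR-99a-5p, miR-99b-5p and miR-100-5p shared the seed ACCCGUA, and miR-125a-5p and miR-125b-5p shared CCCUGAG. miR-100-5p and miR-99a-5p differed at 1 base, A16U, with positions counted from 1 at the 5′ end and miR-100-5p given first. miR-99b-5p differed from miR-100-5p at 4 bases, A1C, U11A, A16C and U21C. miR-125a-5p and miR-125b-5p had the same first 13 bases and were 3 edits apart. Whether the miR-99a-5p assay also detected miR-100-5p, or the reverse, was not tested, so similar values of these 2 assays are not independent measurements. The same limit holds for miR-10a-5p and miR-10b-5p, whose assays were not tested for it either. The 3p arms that enter the results had no seed in common.
miR-10b-3p: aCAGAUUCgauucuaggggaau
miR-99a-3p: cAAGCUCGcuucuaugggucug
miR-125a-3p: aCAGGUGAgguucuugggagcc
miR-10a-3p: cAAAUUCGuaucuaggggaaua

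The hairpins lie in 3 related clusters and at 2 HOX loci (GRCh38.p14). On chromosome 11, minus strand, miR-100-5p (chr11:122152275-122152296) lies 5.635 kb from the let-7a-2 hairpin, which in turn lies 46.677 kb from that of miR-125b-1 (mature sequence at chr11:122099809-122099830). All of them are within the long noncoding RNA gene MIR100HG. On chromosome 21, plus strand, the miR-99a hairpin (miR-99a-5p at chr21:16539101-16539122) is 658 bases from let-7c within MIR99AHG, and a further copy of miR-125b lies at chr21:16590253-16590274. The 2 copies of miR-125b give 1 mature sequence and cannot be told apart by the assay. On chromosome 19, plus strand, miR-99b (miR-99b-5p at chr19:51692618-51692639) is 104 bases from let-7e, which is 389 bases from miR-125a (miR-125a-5p at chr19:51693268-51693291), all within the bounds of SPACA6 and SPACA6-AS1. miR-10a-5p (chr17:48579904-48579926, minus strand) lies within HOXB3, and the miR-10b hairpin is at chr2:176150303-176150412.

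Steady-state levels were expressed as the mean threshold cycle (Ct) of 6 small-RNA control wells (5 snoRNAs and RNU6) minus the Ct of the miRNA, which is a log2 scale: a level 1 unit higher stands for a doubling if the PCR is fully efficient. A Ct above 35 was set to 35. The control wells averaged 18.7 to 21.9 cycles per array, and 324 to 367 of the 372 miRNAs were under the cap. Of the members, 10 of 11 were under it on all 12 arrays, against 314 of 372 miRNAs. miR-10b-3p was at the cap on the untreated and the AGO2 cDNA arrays of My5.CRBN. The repeated reverse transcription control wells of an array differed by 0.187 cycles (root mean square) and the PCR control wells by 0.383. Of the blood-lineage miRNAs, miR-142-3p (median Ct 16.6) and miR-150-5p (20.2) were abundant, while miR-155-5p (32.6) and miR-223-3p (29.0) came late. Marker miRNAs of other tissues, such as miR-1 (21.1, muscle) and miR-200c-3p (25.5, epithelium), were detected as well.

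The members spanned a wide range of steady-state levels. miR-125b-5p had a median Ct of 23.1 (21.0 to 25.2) and miR-99a-5p one of 23.3 (21.0 to 25.5), which placed them 67th and 69th of 372 by level. Their median levels of -2.80 and -2.90 lay within the range each covered over the arrays. miR-100-5p, of the same seed as miR-99a-5p, had a median Ct of 26.2 (23.5 to 28.9).

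The other 5p arms were detected later. miR-10a-5p had a median Ct of 28.5 (25.0 to 32.1), miR-10b-5p 29.9 (27.0 to 33.7), miR-99b-5p 30.2 (28.7 to 31.5) and miR-125a-5p 32.7 (30.3 to 34.3). For the miR-125a hairpin, the 3p arm (29.0, 24.6 to 30.5) was detected earlier than the 5p arm on all 12 arrays. miR-99a-3p (31.3), miR-10a-3p (32.5) and miR-10b-3p (34.2) were later than the 5p arm of their hairpin. These orders compare different PCR assays, whose efficiencies were not given. A Ct late in the run can also carry more error: the control assay cel-miR-39, at Ct 31.5 or later, differed between its repeated wells by 1.43 cycles (root mean square) and by at least 3 fold on 4 of 12 arrays. Whether cel-miR-39 RNA was added to these samples is not stated, so its wells may show background. miR-125a-5p, miR-10b-3p, miR-10a-3p and miR-99a-3p had median Ct values of 31.3 or later, so their single-array differences may carry an error of that size.

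**Figure D1:**
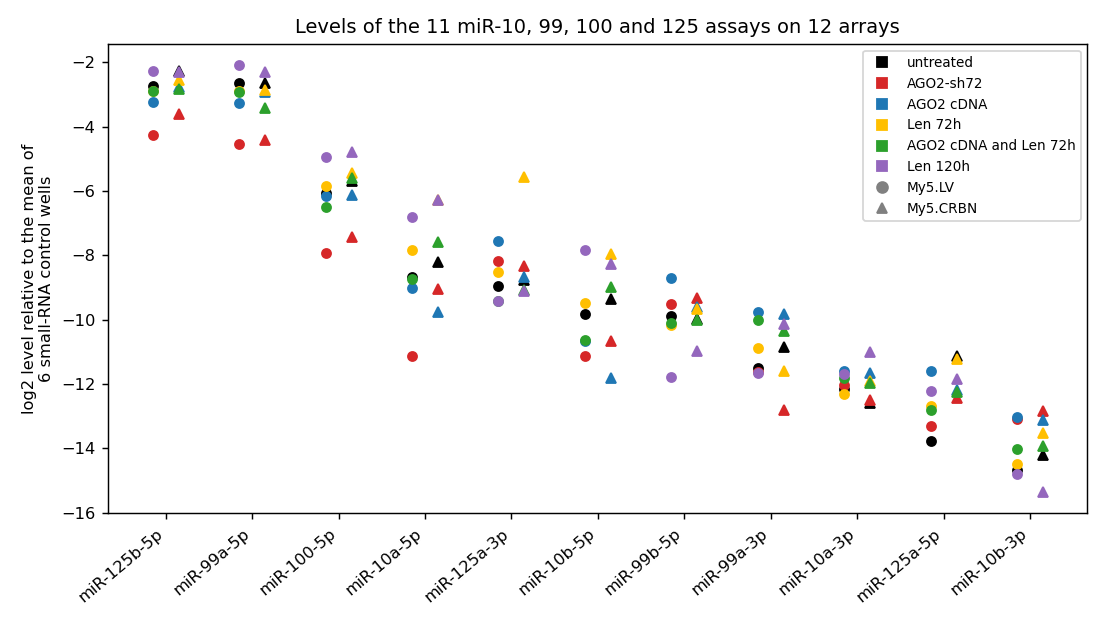
Level of each of the 11 members on the 12 arrays, as log2 relative to the mean of 6 small-RNA control wells; circles are My5.LV, triangles My5.CRBN, and colours the 6 conditions, 1 array per point. The AGO2-sh72 points of miR-125b-5p, miR-99a-5p and miR-100-5p are the lowest of their line, and 1 triangle of miR-125a-3p (My5.CRBN, Len 72h) lies far above its other arrays.

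miR-10a-5p varied most over the 12 arrays, by 4.85 on the log2 scale (28.9 fold) between its lowest array, My5.LV with AGO2-sh72, and its highest, My5.CRBN with Len 72h. miR-10b-5p covered 3.99, miR-125a-3p 3.85 and miR-100-5p 3.17, while miR-99a-5p covered 2.44, miR-125b-5p 1.99 and miR-10a-3p 1.59. The median range was 3.05 for the members and 2.55 for all 372 miRNAs.

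The abundant 5p arms were lower after AGO2-sh72. For miR-99a-5p the level was -2.64 untreated and -4.54 with AGO2-sh72 in My5.LV, and -2.63 and -4.41 in My5.CRBN. For miR-100-5p the same arrays gave -6.06 and -7.94 in My5.LV, and -5.69 and -7.43 in My5.CRBN. miR-125b-5p was at -2.73 and -4.25 in My5.LV and at -2.26 and -3.60 in My5.CRBN. For all 3 of them the AGO2-sh72 arrays were the lowest 2 of the 12. How many of the other miRNAs had this order was not counted, so it is not a trait of these members. Each array measured the RNA of a whole culture, so fewer cells with a miRNA and less of it per cell cannot be told apart.

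An additive model of line and condition fitted over all 12 arrays and 372 miRNAs (limma, 5 residual degrees of freedom, Benjamini-Hochberg over all miRNAs) was used to test the conditions. Each condition then has 2 arrays, 1 per line, and a response that differs between the lines counts as error. After AGO2-sh72, miR-99a-5p fell by 1.84 on the log2 scale (SE 0.35, limma adjusted p = 0.013), miR-100-5p fell by 1.81 (SE 0.35, limma adjusted p = 0.013) and miR-125b-5p fell by 1.43 (SE 0.35, limma adjusted p = 0.023). That is 3.57, 3.51 and 2.70 fold.

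These 3 members were lower on arrays where many miRNAs were lower. The fit called 28.5% of all miRNAs lower and 0.806% higher, and the median change was -0.59 over all miRNAs and -1.06 over the members. Of 11 members, 3 were called lower and 1 higher. The share called lower was thus near that of the whole array. In single arrays, counted at a limit of 3 fold and not tested, My5.LV had 3 members lower (miR-10a-5p, 5.46 fold, miR-99a-5p, 3.72 fold, and miR-100-5p, 3.69 fold), with 23.7% of all miRNAs lower and 1.88% higher. My5.CRBN also had 3 lower (miR-99a-3p, 3.93 fold, miR-99a-5p, 3.43 fold, and miR-100-5p, 3.34 fold), with 12.9% of all miRNAs lower and 1.61% higher.

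The 1 member that rose was miR-10b-3p, a rare arm: its level was -14.67 untreated and -13.10 with AGO2-sh72 in My5.LV, and -14.21, a Ct at the cap, and -12.85 in My5.CRBN. The increase of 1.46 (SE 0.42, limma adjusted p = 0.030) rests on Ct values between 33.3 and 35, and its adjusted p was 0.121 when the prior variance was allowed to follow the mean level. A cap at Ct 32 could not test the increase, since the lowest Ct of miR-10b-3p was 32.6. Every array was then at the cap, and the difference of 0.23 came from the control wells alone.

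The miR-10 5p arms also had lower values in both lines, short of the threshold. miR-10a-5p was at -8.67 untreated and -11.12 with AGO2-sh72 in My5.LV, and at -8.20 and -9.04 in My5.CRBN, a mean difference of -1.65 (SE 0.60, limma adjusted p = 0.066). miR-10b-5p differed by -1.30 in My5.LV and -1.29 in My5.CRBN (SE 0.65, limma adjusted p = 0.168). Neither passed the test after adjustment over all miRNAs, and miR-10a-5p differed more between the lines than miR-10b-5p.

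None of the chromosome 19 members passed the test. miR-99b-5p, with the seed of miR-99a-5p and miR-100-5p, was at -9.89 and -9.52 in My5.LV and at -9.99 and -9.34 in My5.CRBN (0.51, SE 0.44, limma adjusted p = 0.470). The difference was 0.61 for miR-125a-3p (95% interval -1.12 to 2.34) and -0.42 for miR-125a-5p (95% interval -1.88 to 1.03). miR-125a-5p was 0.46 higher in My5.LV and 1.31 lower in My5.CRBN. miR-99a-3p was at -11.50 and -11.64 in My5.LV but at -10.84 and -12.81 in My5.CRBN.

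The AGO2-sh72 calls depended on the arrays and on the reference. Without the untreated array of My5.LV, the AGO2-sh72 array of My5.LV or the untreated array of My5.CRBN, none of the 11 members and 0 of all 372 miRNAs passed the test (109 with all arrays), although miR-99a-5p still differed by -1.74 to -1.86. The control wells were also replaced by the mean of the 314 miRNAs under the cap on every array, called below the mean of all miRNAs. This moved the median of all 372 miRNAs from -0.59 to 0.11. The differences were then -1.13 for miR-99a-5p (limma adjusted p = 0.112), -1.11 for miR-100-5p (0.080) and -0.73 for miR-125b-5p (0.224).

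**Figure D2:**
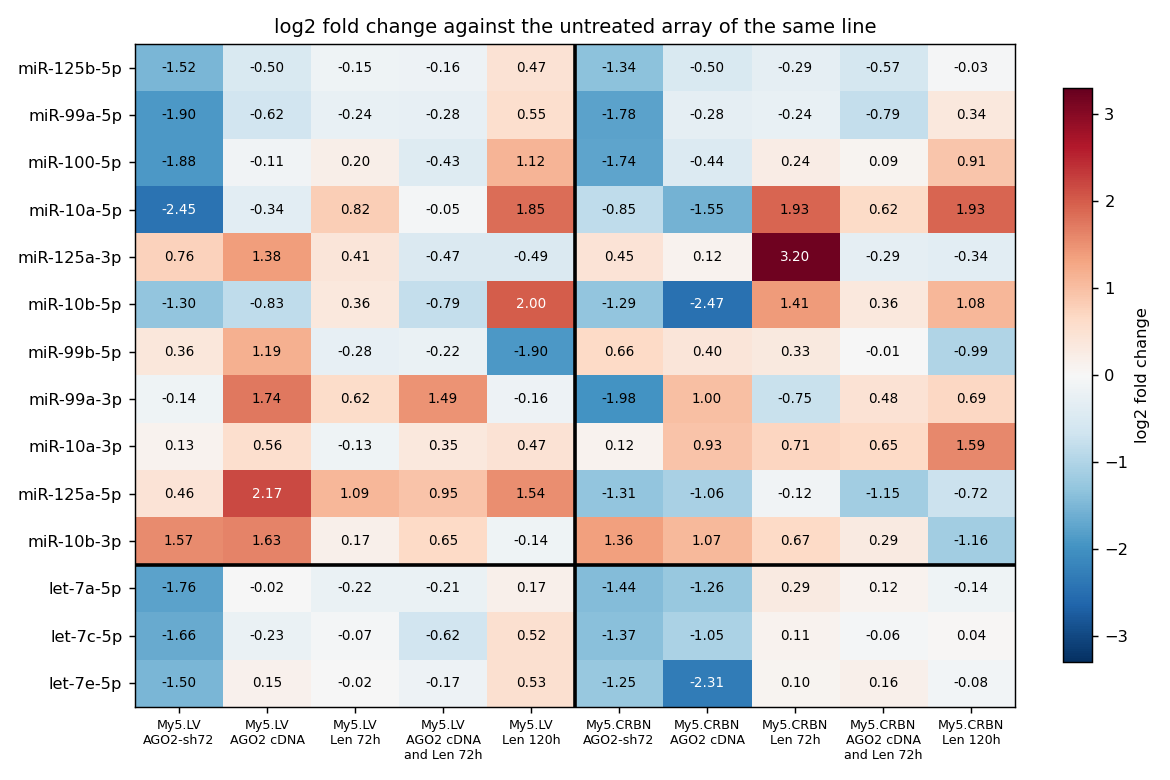
Log2 fold change of the 11 members and of let-7a-5p, let-7c-5p and let-7e-5p against the untreated array of the same line, with 1 array per condition and the value printed in each cell. Blue columns stand at AGO2-sh72 in both lines for miR-125b-5p, miR-99a-5p, miR-100-5p and the let-7 members, and the strongest cell is miR-125a-3p at 3.20 in My5.CRBN with Len 72h.

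AGO2 cDNA was compared with AGO2-sh72, since both arms had been infected and selected, and 3 members were higher with the cDNA. miR-100-5p was at -6.17 with the cDNA and -7.94 with AGO2-sh72 in My5.LV, and at -6.13 and -7.43 in My5.CRBN, an increase of 1.53 (SE 0.35, limma adjusted p = 0.023). miR-99a-5p was at -3.26 and -4.54 in My5.LV and at -2.92 and -4.41 in My5.CRBN, an increase of 1.38 (SE 0.35, limma adjusted p = 0.027). miR-99a-3p, the partner arm of the same hairpin, was at -9.76 and -11.64 in My5.LV and at -9.83 and -12.81 in My5.CRBN, an increase of 2.43 or 5.39 fold (SE 0.59, limma adjusted p = 0.026).

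For all 3 the cDNA array lay above the AGO2-sh72 array in both lines. The fit called 25.0% of all miRNAs higher and 0.269% lower in this comparison. The median change was 0.64 over all miRNAs and 0.70 over the members, so the share of members called (3 of 11) was again near the background. miR-125b-5p differed by 0.93 (SE 0.35, limma adjusted p = 0.082).

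The miR-10 5p arms differed in opposite directions in the 2 lines. miR-10a-5p was 2.10 higher with the cDNA than with AGO2-sh72 in My5.LV and 0.71 lower in My5.CRBN, and miR-10b-5p was at -10.67 and -11.14 in My5.LV but at -11.83 and -10.65 in My5.CRBN. These cDNA calls were lost without any 1 of the 4 arrays compared, and none of the members passed with the mean of all miRNAs as reference. miR-99a-5p also lost its call without either untreated array (limma adjusted p = 0.053), and miR-99a-3p with the cap at Ct 32 (limma adjusted p = 0.059).

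Against untreated cells, AGO2 cDNA changed no member past the test. limma called 0.0% of all miRNAs in either direction (0 of 372), and 3 members and 35 of 372 miRNAs had an unadjusted p under 0.05. Those 3 were miR-10b-5p (-1.65, SE 0.65), miR-99a-3p (1.37, SE 0.59) and miR-10b-3p (1.35, SE 0.42). For miR-10b-3p both My5.CRBN arrays were at the cap, so the value of 1.07 in that line came from the control wells alone. Its Ct before capping was 35.3 untreated and 36.0 with the cDNA. miR-99a-5p (-0.45), miR-100-5p (-0.28) and miR-125b-5p (-0.50) were within 2 SE of the untreated arrays.

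By the 3-fold count, AGO2 cDNA in My5.LV had 3 members higher and none lower, with 5.91% of all miRNAs higher and 0.806% lower. They were miR-125a-5p (4.50 fold), miR-99a-3p (3.33 fold) and miR-10b-3p (3.10 fold), all with Ct values of 30.9 or later. In My5.CRBN there was 1 member lower, miR-10b-5p (5.54 fold, Ct 30.1 untreated and 33.7 with the cDNA), with 6.18% of all miRNAs lower and 2.15% higher. That array had the latest control wells (21.9) and the fewest miRNAs under the cap (324). Their part in the result was not tested.

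After 120 h of lenalidomide, both miR-10 5p arms had higher values in both lines. The level of miR-10a-5p was -8.67 untreated, -7.85 with Len 72h and -6.82 with Len 120h in My5.LV, and -8.20, -6.27 and -6.27 in My5.CRBN. For miR-10b-5p it was -9.84, -9.48 and -7.84 in My5.LV, and -9.36, -7.95 and -8.27 in My5.CRBN. The untreated arrays lay below both lenalidomide arrays of the same line for both miRNAs.

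The fit gave 1.89 for miR-10a-5p at Len 120h (SE 0.60, limma adjusted p = 0.090) and 1.54 for miR-10b-5p (SE 0.65, limma adjusted p = 0.199), so neither passed. At Len 72h the differences were 1.37 and 0.88 (limma adjusted p = 0.935 for both). With the mean of all miRNAs as reference miR-10a-5p did pass at Len 120h (2.12, limma adjusted p = 0.020). The levels of miR-10a-5p and miR-10b-5p were higher on arrays whose control wells came earlier, with a correlation over the 12 arrays of -0.69 and -0.66 between level and control-well Ct, against a median of -0.11 over the 314 miRNAs. The Len 120h arrays had control wells at 19.6 and 18.7, and the untreated arrays at 20.2 and 20.8. The part of this in the result was not tested.

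The other members at Len 120h went in both directions. miR-100-5p had higher values, at -6.06 untreated and -4.94 with Len 120h in My5.LV and at -5.69 and -4.78 in My5.CRBN, a difference of 1.02 (SE 0.35, limma adjusted p = 0.119). miR-99b-5p, of the same seed, had lower values, -9.89 and -11.79 in My5.LV and -9.99 and -10.99 in My5.CRBN, a difference of -1.45 (SE 0.44, limma adjusted p = 0.081). Its Len 120h arrays were the lowest 2 of its 12, an order that was not counted over the other miRNAs. miR-99a-5p (0.45) and miR-125b-5p (0.22) stayed within 2 SE.

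No member passed the test at Len 120h, at which 0.806% of all miRNAs were called higher and 6.99% lower, and 84 of 372 miRNAs had an unadjusted p under 0.05. Among them were 5 members, miR-10a-5p, miR-10a-3p, miR-10b-5p, miR-100-5p and miR-99b-5p. At Len 72h limma called 0.0% of all miRNAs (0 of 372), with 2 members and 18 of 372 miRNAs at an unadjusted p under 0.05.

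By the 3-fold count, My5.LV at Len 120h had 2 members higher (miR-10a-5p, 3.61 fold, and miR-10b-5p, 4.00 fold) where 4.3% of all miRNAs were higher, and 1 lower (miR-99b-5p, 3.74 fold) where 14.2% were lower. My5.CRBN at Len 120h had 2 higher (miR-10a-5p, 3.80 fold, and miR-10a-3p, 3.02 fold) where 5.11% were higher, and none lower where 13.4% were. At Len 72h, My5.LV had no member past 3 fold, with 0.538% of all miRNAs higher and as many lower.

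The largest difference of any member from its untreated array was that of miR-125a-3p in My5.CRBN at Len 72h. Its level was -8.78 untreated, -5.58 with Len 72h and -9.12 with Len 120h. This was 9.22 fold higher at 72 h, with the Ct at 24.6 on that array and between 27.8 and 30.5 on the other 11. In My5.LV the levels were -8.94, -8.53 and -9.43, and with AGO2 cDNA and Len 72h in My5.CRBN the level was -9.07. The 1 array was thus high by itself. miR-125a-5p, from the same hairpin, was at -11.12 untreated and -11.24 on that array. With miR-10a-5p (3.81 fold) it made 2 members at least 3 fold higher, where 9.95% of all miRNAs were higher and 1.61% lower. The fit gave miR-125a-3p 1.81 at Len 72h (SE 0.77, limma adjusted p = 0.935).

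Lenalidomide was also given to cells with AGO2 cDNA, and no member passed the test against the cDNA alone. limma called 0.0% of all miRNAs (0 of 372), and 37 of 372 miRNAs but none of the members had an unadjusted p under 0.05. The values furthest from 0 were those of miR-10b-5p (1.43, SE 0.65), miR-10a-5p (1.23, SE 0.60) and miR-125a-3p (-1.13, SE 0.77). In My5.CRBN, miR-10b-5p was at -11.83 with the cDNA and -9.00 with both, and miR-10a-5p at -9.75 and -7.57. These were 7.10 and 4.52 fold higher, where 8.33% of all miRNAs passed 3 fold upwards and 2.42% downwards. In My5.LV the same 2 members were at -10.67 and -10.63, and at -9.02 and -8.73. miR-125a-3p in My5.LV was 3.60 fold lower with both than with the cDNA, where 11.6% of all miRNAs were lower and 0.269% higher. Against the untreated arrays no member reached 3 fold with both agents. Of all miRNAs, 2.42% were higher and 5.11% lower in My5.LV, and 4.3% were higher and 0.806% lower in My5.CRBN.

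My5.CRBN and My5.LV were compared over 6 matched pairs of arrays, 1 pair per condition. The 6 pairs are different conditions of the same sorted pools, so other differences between the pools cannot be told apart from CRBN. miR-100-5p was higher in My5.CRBN in 6 of 6 pairs, by 0.04 to 0.89 with a mean of 0.40 ± 0.30 (SD, n = 6 pairs, two-sided exact sign-flip permutation p = 0.03125, the smallest that 6 pairs allow). miR-125b-5p was higher in 5 of 6 pairs, by a mean of 0.33 ± 0.26 (SD, n = 6 pairs, two-sided exact sign-flip permutation p = 0.0625). Neither exact p was adjusted, and 11 members were tested. In the fit across all miRNAs, which called 0.538% higher and 0.538% lower, no member passed (limma adjusted p = 0.474 for miR-100-5p and 0.565 for miR-125b-5p).

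miR-10a-5p (0.85, SE 0.35, limma adjusted p = 0.302) and miR-125a-5p (0.89, SE 0.37, limma adjusted p = 0.322) had the largest means, each higher in 5 of 6 pairs. For miR-125a-5p the untreated pair was furthest apart, at -13.76 in My5.LV and -11.12 in My5.CRBN, or 6.26 fold. It was the 1 member past 3 fold between the untreated lines, where 2.15% of all miRNAs were higher and 1.88% lower in My5.CRBN. miR-99a-5p differed by -0.03 (95% interval -0.49 to 0.42).

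**Figure D3:**
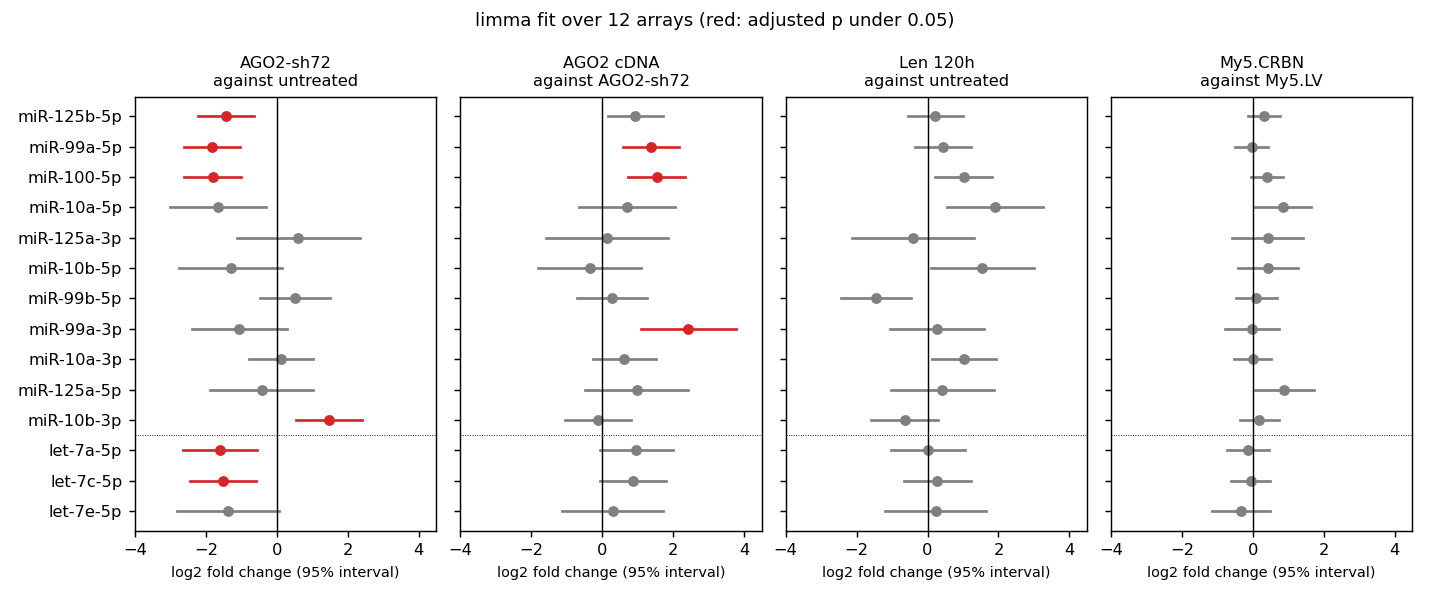
Log2 fold change with its 95% interval from the limma fit over 12 arrays, for 4 of the 7 comparisons; red marks an adjusted p under 0.05, and the 3 let-7 partners stand under the dotted line. miR-99a-5p and miR-100-5p are red on opposite sides of 0 in the first 2 panels, which share the AGO2-sh72 arrays with opposite sign. No member is red for Len 120h or for the line.

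The abundant 5p arms of chromosomes 11 and 21 had like patterns over the arrays. Pearson r between levels over the 12 arrays is given as a description, since all miRNAs of an array share its RNA, its plate and its control wells. It was 0.93 between miR-99a-5p and miR-125b-5p, 0.93 between miR-100-5p and miR-125b-5p and 0.90 between miR-99a-5p and miR-100-5p, against a median of 0.18 over all pairs of miRNAs under the cap on every array. miR-10a-5p and miR-10b-5p, from separate HOX clusters, had 0.92. Whether either of these assays also detected the other miRNA was not tested, so they are not independent measurements. miR-99b-5p had -0.65 with miR-99a-5p and -0.63 with miR-100-5p, its seed partners. miR-125a-5p had 0.48 with miR-125b-5p, of the same seed.

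The let-7 neighbours on chromosomes 11 and 21 also fell after AGO2-sh72, where the fit called 28.5% of all miRNAs lower. A fall is thus not particular to these clusters. With the mean of all miRNAs as reference, 1 of 372 miRNAs was called lower. let-7a-5p was at 1.18 and -0.58 in My5.LV and at 1.12 and -0.32 in My5.CRBN, untreated and with AGO2-sh72, and fell by 1.60 (SE 0.46, limma adjusted p = 0.032). let-7c-5p was at -2.80 and -4.46 in My5.LV and at -2.82 and -4.19 in My5.CRBN, and fell by 1.52 (SE 0.41, limma adjusted p = 0.028). let-7a is also made from further genes on other chromosomes, which the assay cannot tell apart. On chromosome 11, r was 0.80 between let-7a-5p and miR-100-5p and 0.75 between let-7a-5p and miR-125b-5p. On chromosome 21 it was 0.84 between let-7c-5p and miR-99a-5p. It was 0.90 between let-7c-5p and miR-100-5p, which lie on different chromosomes.

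Among the chromosome 19 products the correlations were lower, the highest being 0.51 between miR-99b-5p and miR-125a-3p. let-7e-5p was at -1.91 and -3.41 in My5.LV and at -1.85 and -3.10 in My5.CRBN, untreated and with AGO2-sh72 (-1.37, SE 0.64, limma adjusted p = 0.141). Its r was -0.41 with miR-99b-5p and 0.26 with miR-125a-5p, although the 3 hairpins lie within 1 kb. miR-99b-5p and miR-125a-5p had 0.02. The lowest let-7e-5p level was -4.16, in My5.CRBN with AGO2 cDNA, an array on which miR-99b-5p was at -9.60, above its untreated value. The arms of 1 hairpin likewise had low correlations, with r of 0.42 for miR-125a, 0.39 for miR-99a and 0.32 for miR-10a. In each of these pairs 1 arm came late. Its Ct was 30 or more on 12 of 12 arrays for miR-125a-5p, 11 for miR-10a-3p and 10 for miR-99a-3p. The part of late-Ct error in these correlations, and in those of miR-125a-5p above, was not tested.

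**Figure D4:**
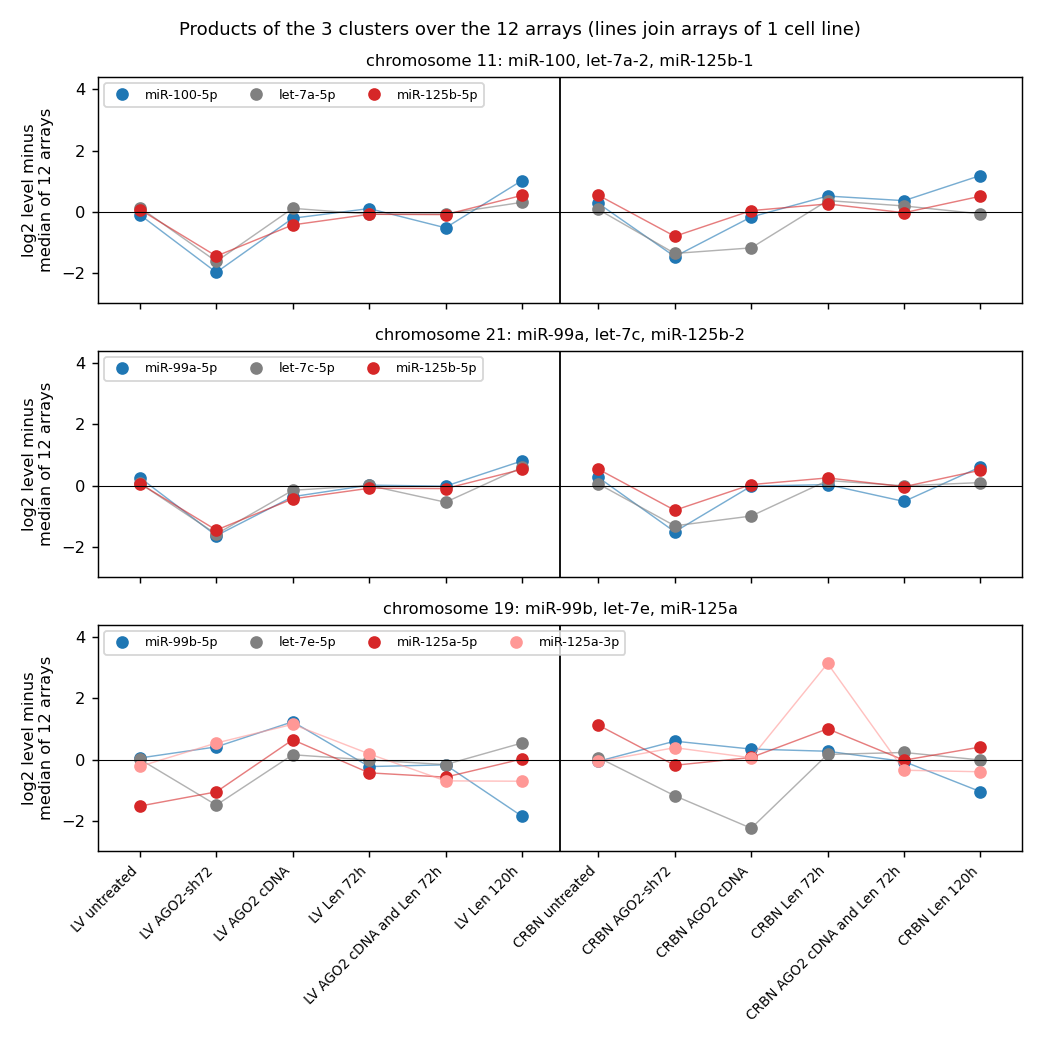
Level minus the median of the 12 arrays (log2) for the products of the clusters on chromosomes 11, 21 and 19, with My5.LV to the left and My5.CRBN to the right of the vertical line; lines join arrays of 1 cell line and carry no order, and miR-125b-5p, made from 2 genes, stands in 2 panels. The products of chromosomes 11 and 21 dip together at AGO2-sh72, while those of chromosome 19 spread apart.

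Of the 301 other miRNAs under the cap on all arrays, the one most like each member was named. It was miR-93-5p for miR-99a-5p (r = 0.97), miR-28-5p for miR-100-5p (0.95), miR-1 for miR-125b-5p (0.94), miR-135b-5p for miR-10b-5p (0.94) and miR-451a for miR-10a-5p (0.92). For the chromosome 19 members it was miR-608 for miR-125a-3p (0.92), miR-1290 for miR-99b-5p (0.90) and miR-206 for miR-125a-5p (0.76). It was miR-27a-5p for miR-10a-3p (0.82) and miR-142-5p for miR-99a-3p (0.81). Each is the highest of 301 values over the same 12 arrays, so the choice itself favours high values.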

How the data were processed

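Total RNA was reverse transcribed and measured on miScript miRNA PCR arrays (SYBR Green) by the authors, who deposited the Ct of each well for 12 arrays. The other deposited table holds the authors' own fold ratios against 1 array and was not used. Ct values were capped at 35 and subtracted from the mean of 6 control wells, which takes PCR efficiency as equal for all assays. A fold limit of 3 follows the study. limma 3.58.1 (R 4.3.3) fitted line and condition over 12 arrays and 372 miRNAs, with calls at an adjusted p (Benjamini-Hochberg) under 0.05, and was tested on simulated data. Figures and exact tests used Python 3.11.15 and SciPy 1.17.1. Nothing in the labels ties arrays to separate cultures, so p-values measure the spread between these arrays. Named miRNAs were all members, the let-7 partners of their clusters and the miRNA most like each member. The members and lists were chosen with earlier results of these data known. Alternatives changed the normalizer, the cap, the filter, the fold limit, the prior variance and the arrays. Number of columns of the Ct table left unused: 0.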

Additional observations from a re-analysis of the deposited data

Results flagged for a closer look

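Of the 55 combinations of a member and a condition, 13 had opposite signs against the untreated array in My5.LV and My5.CRBN, each line with 1 array, and miR-125a-5p made 5 of the 13, 1 in each condition. In 5 of the 13 both values also exceeded the SD of the 6 control wells between the arrays compared. These 5 are given here, and none of the differences was tested. miR-125a-5p accounts for 3 of them. With AGO2 cDNA it was 2.17 higher in My5.LV and 1.06 lower in My5.CRBN, a difference between the lines of 3.23 on the log2 scale. With Len 120h it was 1.54 higher and 0.72 lower, a difference of 2.25, and with AGO2 cDNA and Len 72h 0.95 higher and 1.15 lower, a difference of 2.09. All 3 share the untreated arrays, of which that of My5.LV (-13.76) was the lowest of the 12 for this miRNA and that of My5.CRBN (-11.12) the highest, with Ct values of 33.9 and 31.9. miR-99a-3p at Len 72h was 0.62 higher in My5.LV and 0.75 lower in My5.CRBN, a difference of 1.36. miR-99b-5p at Len 72h was 0.28 lower and 0.33 higher, a difference of -0.61. The control wells averaged 18.7 to 21.9 cycles per array, so their SD does not cover the error of late wells. The late cel-miR-39 wells differed by 1.43 cycles (root mean square). In these 5, only the My5.LV values of miR-125a-5p with AGO2 cDNA (2.17) and Len 120h (1.54) exceeded that.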

How the results depend on the processing

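The number of members called after AGO2-sh72 was 4 with the control wells. With the mean of all miRNAs (those under the cap on every array) as reference it was 1, miR-10b-3p. The calls over all 372 miRNAs went from 109 to 11. Leaving out 1 array at a time gave 0 to 5 calls among the members and 0 to 121 over all miRNAs, both 0 without the untreated or AGO2-sh72 array of My5.LV or the untreated array of My5.CRBN. For AGO2 cDNA against AGO2-sh72 the 3 calls became 0 with the mean of all miRNAs, and 0 to 3 when 1 array was left out. At Len 120h the count of 0 became 2 with the mean of all miRNAs (miR-10a-5p and miR-100-5p higher) and 2 with the reverse transcription control wells as reference, a setting chosen after seeing the data (miR-10a-5p higher, miR-99b-5p lower). It was 0 to 2 when 1 array was left out, with 2 calls without the AGO2 cDNA array of either line. Over the 10 arrays set against their untreated array, the 8 values at least 3 fold lower became 3 with the mean of all miRNAs, 18 with RNU6 alone, 13 with the reverse transcription wells and 17 at a limit of 2 fold, and the 9 higher became 21 at a limit of 2 fold. RNU6 alone gave 6 calls after AGO2-sh72 (180 over all miRNAs), with miR-10a-5p at -2.36 and miR-10b-5p at -2.01 now called and miR-10b-3p (0.75) not. With 1 array left out, let-7e-5p ranged from -2.32 to 0.16 for AGO2 cDNA against untreated (-1.08 with all arrays) and from -0.16 to 2.32 for AGO2 cDNA with Len 72h against the cDNA (1.08), and turned its sign without the My5.CRBN AGO2 cDNA array. The cause of these shifts was not tested.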
